A study of Homo sapiens with 6 samples.

Results

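LX-2 cells, an established human hepatic stellate cell line, carried mRNA of all 10 genes followed here: FOS, FOSB, FOSL1, FOSL2, JUN, JUNB, JUND, EGR1, MYC and MAFF. They were taken from the gene table by symbol, from a set of names drawn up with earlier results of these data known, and are 10 of the 33900 genes listed. All 10 were among the 14178 genes tested, those with a mean FPKM (fragments per kilobase, scaled to depth) of at least 0.5. RNA sequencing covered 3 samples treated with rhSema3C, recombinant human Sema3C, at 300 ng/ml and 3 control samples treated with PBS, all wild type and collected at 48 h. The cells had been kept in DMEM with fetal bovine serum. The study asked how Sema3C acts on hepatic stellate cells, and here the question is whether these transcription factor mRNAs differed at that time. After 48 h of rhSema3C, FOSB, FOS and EGR1 were lower by 3.16-fold, 1.79-fold and 1.72-fold, FOSL2, JUN and JUNB were lower by smaller amounts, JUND and FOSL1 were higher, and MYC and MAFF did not pass the test.

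AP-1 is a dimeric transcription factor in which proteins of the JUN family pair with each other or with proteins of the FOS family, through a leucine zipper. Several of its genes are immediate early genes, which are switched on within minutes of growth factor or serum stimulation without new protein synthesis and then decline, whereas others such as FOSL1 stay on under sustained ERK signalling. In hepatic stellate cells AP-1 is known for its place in activation and in the control of matrix-degrading enzymes and cytokines. EGR1 is a zinc finger factor induced by the same serum response pathway, MYC is a driver of growth and ribosome production, and MAFF is a small MAF protein that dimerises with other leucine zipper factors. The values below are mRNA levels and carry no information on protein amount, phosphorylation or the brief peak of induction.

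The libraries held between 68267808 and 89245585 counts on genes. The labels give the replicates as biological replicates without naming the cultures they came from, so the p-values measure the spread between these samples. Of 11 stellate cell and myofibroblast markers, 8 had a mean FPKM of at least 0.5, among them VIM and COL1A1, while COL1A2, DES and the retinol enzyme LRAT were near 0. Their summed level was 1233 to 1298 FPKM with PBS and 950 to 1009 with rhSema3C, most of it VIM at a mean of 1035 and 834.5 FPKM. Within the list TAGLN went from 58.4 to 9.66 FPKM, COL1A1 from 96.0 to 60.1 and THY1 from 24.4 to 13.4. COL3A1 went from 22.7 to 19.0 and ACTA2 from 14.3 to 10.4. The other way, LOX went from 8.02 to 17.8, and PDGFRB from 4.69 to 5.38 with overlapping replicates. Defining markers of hepatocytes (ALB), leukocytes (PTPRC), endothelium (PECAM1) and bile duct (EPCAM) all had a mean of at most 0.0594 FPKM in either group, but other markers of these lists were present. The 6 macrophage and leukocyte markers summed to 94.6 to 103.4 FPKM with PBS and 67.2 to 72.8 with rhSema3C, mostly CD68 (93.4 and 66.9), with CD14 at 4.69 and 2.88. The 4 cholangiocyte markers summed to 12.4 to 14.7 and 8.60 to 9.31 FPKM, mostly SOX9 (9.94 and 5.45) and KRT7 (2.95 and 3.21). The 4 hepatocyte markers listed summed to 2.63 to 3.15 and 3.52 to 4.14 FPKM, nearly all SERPINA1, and the 5 endothelial markers to 0.803 to 1.06 and 1.27 to 1.70 FPKM. The part of these marker levels in the results below was not tested. Mitochondrial genes took 4.75% to 5.42% of the counts with PBS and 3.73% to 3.93% with rhSema3C, and the part of this shift was likewise not tested.

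Counts were compared with edgeR's quasi-likelihood test after TMM normalisation, which scales each library by a trimmed mean of its ratios to the others, and levels are given as CPM, counts scaled to one normalised library size. Every adjusted p given for a gene is from this fit, with Benjamini-Hochberg adjustment over all genes tested, unless limma is named. At an adjusted p below 0.05, 8 of the 10 genes were called, 6 lower and 2 higher. Across all genes tested, 62.3% were called, 30.6% as lower and 31.7% as higher. A call was therefore the common outcome in this comparison, and the sizes of the changes say more than their number. The 10 genes had a median log2 fold change of -0.24, beside 0.02 over all genes tested, and with TPM these medians were -0.01 and 0.23. At a mean FPKM of at least 5, where FOS and FOSB were not tested, the median of the others was 0.01. In 8 of the 10 genes the CPM of the groups did not overlap, compared with 67.8% of all genes tested. FOSB alone was also called with a fold change above 2, as were 5.37% of all genes, 3.31% as higher and 2.06% as lower. The share of rises among all calls was 50.9% here, but 62.3% when scaled by library size alone and 74.1% with values rescaled to TPM, since the median of all genes then moved to 0.13 and 0.23 on the log2 scale.

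**Figure D1:**
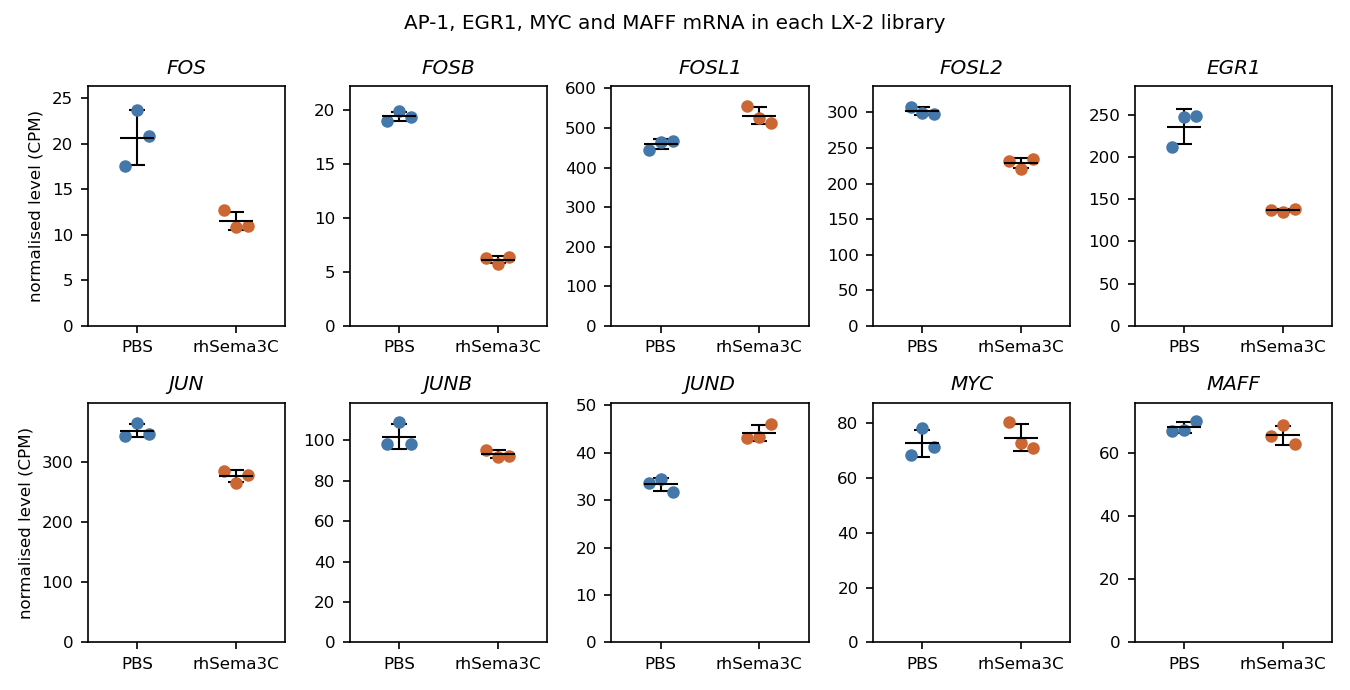
Normalised mRNA level in CPM (vertical axis of each panel, starting at 0) for each gene in the 3 PBS libraries (blue) and the 3 rhSema3C libraries (orange), with points for single libraries, horizontal lines for means and bars for the SD. The groups are apart in every panel except MYC and MAFF, and the widest relative gap is in FOSB, at 19.4 CPM with PBS and 6.13 with rhSema3C.

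FOSB, FOS and EGR1, the classic rapidly induced members, fell most. FOSB (ENSG00000125740, chromosome 19 of GRCh38, 45467995 to 45475179) encodes a FOS family partner of JUN proteins. Its level was 19.0, 19.8 and 19.4 CPM in PBS replicates 1, 2 and 3, and 6.29, 5.74 and 6.36 CPM in rhSema3C replicates 1, 2 and 3. Every treated library was below every control library, and the spread within each group was small beside the gap. In such bulk samples fewer expressing cells and less RNA per cell cannot be told apart. The log2 fold change was -1.66 ± 0.09 (SE, edgeR adjusted p = 9.2e-08), which ranked 60 from the lowest among all genes tested. The FOSB span lies inside that of ERCC1, a DNA repair gene on the other strand, which fell from 167.8 ± 4.97 to 105.0 ± 3.99 CPM (mean ± SD of 3 samples). The exons of FOSB and ERCC1 share 0 bases in GENCODE release 29, and the log2 fold change of ERCC1 was -0.68. Whether the counting used strand is not given in the sources used here.

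FOS (ENSG00000170345, chromosome 14, 75278826 to 75282230) encodes c-Fos, the founding partner of c-Jun in AP-1. It was measured at 17.6, 23.7 and 20.8 CPM with PBS and at 12.7, 10.9 and 10.9 CPM with rhSema3C. The groups did not overlap, although PBS replicate 1 lay closest to the treated samples. The log2 fold change was -0.84 ± 0.12 (SE, edgeR adjusted p = 8.8e-05), and it stayed between -0.95 and -0.74 when each sample was left out in turn.

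EGR1 (ENSG00000120738, chromosome 5, 138465479 to 138469303) stood at 211.5, 247.8 and 248.0 CPM with PBS. With rhSema3C it stood at 137.4, 134.4 and 138.5 CPM. PBS replicate 1 was again the lowest control, and the treated samples lay within a few CPM of each other. The log2 fold change was -0.79 ± 0.06 (SE, edgeR adjusted p = 7.6e-07), a value below which 4.87% of all genes tested fell. EGR1 and FOS fell by similar amounts: the log2 ratio of EGR1 to FOS in FPKM was 3.54 ± 0.11 with PBS and 3.60 ± 0.12 with rhSema3C (mean ± SD of 3 samples, two-sided exact permutation test, p = 0.5).

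FOSL1 and FOSL2, the FOS family members without the strong activation domain of c-Fos, moved in opposite directions. FOSL1 (ENSG00000175592, chromosome 11, 65892049 to 65900419), which encodes Fra-1, had 445.1, 465.7 and 466.8 CPM with PBS and 555.5, 526.1 and 511.7 CPM with rhSema3C. All treated samples were higher, by 1.16-fold on average, with a log2 fold change of 0.21 ± 0.04 (SE, edgeR adjusted p = 0.0015). FOSL2 (ENSG00000075426, chromosome 2, 28392448 to 28417312), which encodes Fra-2, had 307.8, 299.6 and 298.2 CPM with PBS and 232.3, 220.4 and 234.1 CPM with rhSema3C. All treated samples were lower, and the log2 fold change was -0.40 ± 0.04 (SE, edgeR adjusted p = 8.4e-06). FOSL2 overlaps the spans of 2 genes of very low level, FLJ31356 on the other strand and AC104695 on its own, with at most 30 counts each in any library.

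The 3 JUN genes also split. JUN (ENSG00000177606, chromosome 1, 58780791 to 58784047), which encodes c-Jun, had 343.3, 363.6 and 346.2 CPM with PBS and 285.0, 264.7 and 278.4 CPM with rhSema3C. Its groups did not overlap, and the log2 fold change was -0.35 ± 0.04 (SE, edgeR adjusted p = 4.2e-05). JUND (ENSG00000130522, chromosome 19, 18279694 to 18281622), whose product is the JUN protein most often linked to resting cells, had 33.6, 34.5 and 31.7 CPM with PBS and 43.2, 43.2 and 46.1 CPM with rhSema3C. It rose 1.33-fold, with a log2 fold change of 0.41 ± 0.06 (SE, edgeR adjusted p = 0.00017), and was the largest rise among the 10 genes.

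JUNB (ENSG00000171223, chromosome 19, 12791486 to 12793315), a weaker activator that can restrain c-Jun, was at the edge of the threshold. Its level was 97.9, 109.0 and 98.4 CPM with PBS and 95.3, 91.7 and 92.3 CPM with rhSema3C. The groups did not overlap, but PBS replicate 2 stood well above the other controls, which lay close to the treated samples. The log2 fold change was -0.13, with a 95% interval of -0.24 to -0.02 (edgeR adjusted p = 0.044). Without PBS replicate 2 the adjusted p was 0.17, without rhSema3C replicate 2 it was 0.12 and without rhSema3C replicate 3 it was 0.13, and with values rescaled to TPM the log2 fold change was 0.10. Relative to the median of all genes it was -0.15 with TMM and -0.13 with TPM.

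MYC and MAFF did not pass the test at the filter used here. MYC (ENSG00000136997) had 68.5, 78.3 and 71.2 CPM with PBS and 80.5, 72.7 and 71.1 CPM with rhSema3C, so the groups overlapped. Its log2 fold change was 0.04 with a 95% interval of -0.10 to 0.18 (edgeR adjusted p = 0.59), and the sign turned without PBS replicate 1 or without rhSema3C replicate 1. At a mean FPKM of at least 5 MYC was called higher, with a log2 fold change of 0.15 (edgeR adjusted p = 0.045). With TPM the log2 fold change was 0.26 (adjusted p = 0.0098 from limma), in a fit where the median of all genes was 0.23. MAFF (ENSG00000185022, chromosome 22, 38200767 to 38216507) had 66.8, 67.4 and 69.9 CPM with PBS and 65.3, 68.7 and 62.6 CPM with rhSema3C, which also overlap. The interval of its log2 fold change, -0.16 to 0.06 around -0.05, leaves room for small changes in either direction, and with TPM the value was 0.17 (adjusted p = 0.019 from limma). PLA2G6 overlaps the MAFF span on the other strand at 3.21 ± 0.11 CPM with PBS and 4.53 ± 0.44 CPM with rhSema3C (mean ± SD of 3 samples), and the exons of MAFF and PLA2G6 share 0 bases.

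**Figure D2:**
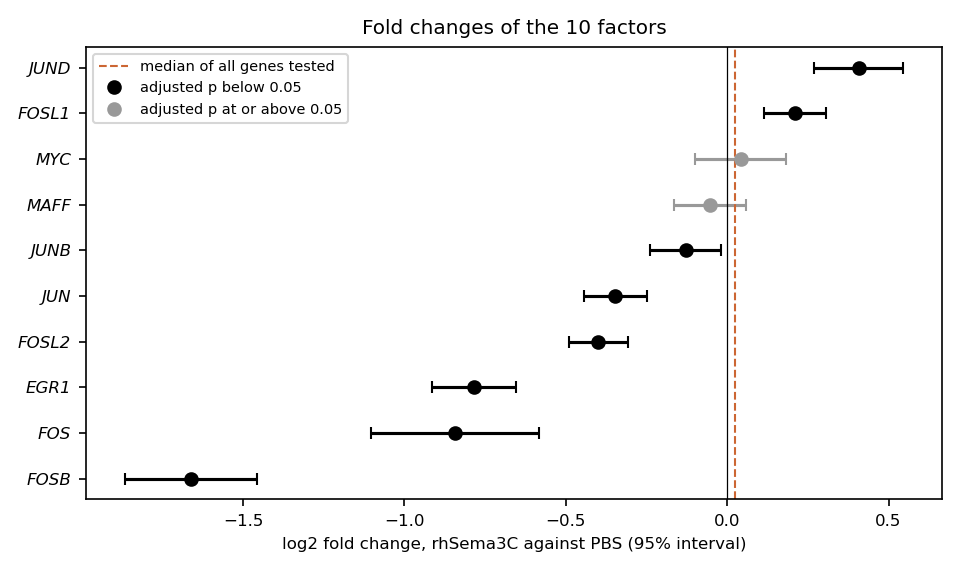
Log2 fold change of rhSema3C against PBS (horizontal axis) for each of the 10 genes with its 95% interval, black where the adjusted p was below 0.05 and grey where it was not, and a dashed line at the median of all genes tested, 0.02. FOSB, FOS and EGR1 lie far to the left at -1.66, -0.84 and -0.79, and JUND and FOSL1 lie on the right at 0.41 and 0.21.

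Levels of different genes were compared per transcript length, in FPKM. In PBS-treated cells FOSL1 was by far the most abundant of the 10 mRNAs at 228.2 ± 5.85 FPKM, followed by JUN at 101.1 ± 2.64, EGR1 at 70.5 ± 6.16, JUNB at 52.1 ± 2.92 and FOSL2 at 39.5 ± 0.75 (mean ± SD of 3 samples). JUND, MYC, MAFF, FOS and FOSB followed, from 16.2 ± 0.62 down to 3.27 ± 0.06 FPKM. The replicate ranges of genes next to each other in this order did not overlap, except those of JUND and MYC. In rhSema3C-treated cells EGR1, at 43.9 ± 0.72 FPKM, came after JUNB, at 51.2 ± 0.99 FPKM, and no neighbouring ranges overlapped. FOS and FOSB, at 3.63 ± 0.32 and 1.10 ± 0.06 FPKM, remained the lowest, so that FOSL1 lay 70-fold above FOSB with PBS and 257-fold above it with rhSema3C.

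The shares within each family do not depend on the scaling between libraries, but they do depend on the correction for transcript length. FOSL1 made up 82.0%, 82.4% and 82.7% of the summed FOS family FPKM with PBS and 88.7%, 88.8% and 87.9% with rhSema3C. FOSL2 took 14.3% ± 0.57 with PBS and 10.1% ± 0.47 with rhSema3C, FOS took 2.19% ± 0.28 and 1.13% ± 0.06, and FOSB took 1.18% ± 0.01 and 0.34% ± 0.02 (mean ± SD of 3 samples). Thus in this family 3 mRNAs lost share and FOSL1 gained it. The FOSL1 gain was 6.11 percentage points in FPKM and 11.0 with CPM in place of FPKM, and the share of FOSL2 fell by 4.22 and 8.24 points and that of FOSB by 0.83 and 1.63 points on these scales. For all 7 genes of the FOS and JUN families the shares of the groups did not overlap, with a two-sided exact permutation p of 0.1 each, the smallest that 3 samples against 3 allow.

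Within the JUN family, JUN held 59.8%, 59.0% and 60.2% of the summed FPKM with PBS and 54.0%, 52.9% and 53.5% with rhSema3C. JUND held 9.55% ± 0.29 and then 14.4% ± 0.58, and JUNB held 30.8% ± 0.64 and then 32.1% ± 0.51 (mean ± SD of 3 samples). The gain of JUNB was small, at 1.34 percentage points, whereas JUND gained 4.89 percentage points and the share of JUN fell by 6.23.

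Log ratios between pairs of genes were compared in the same way. The log2 ratio of FOSL1 to FOS rose from 5.24 ± 0.18 to 6.29 ± 0.07, which is 37.8 FOSL1 per FOS with PBS and 78.3 with rhSema3C. FOSL2 to FOS went from 2.71 ± 0.24 to 3.15 ± 0.12, JUND to JUN from -2.64 ± 0.05 to -1.89 ± 0.07 and JUNB to JUN from -0.96 ± 0.04 to -0.74 ± 0.03 (mean ± SD of 3 samples). The summed JUN family stood at 0.61 of the summed FOS family with PBS and at 0.50 with rhSema3C, a change of -0.29 on the log2 scale, or -0.19 with CPM in place of FPKM. In each of these 5 ratios the groups did not overlap (two-sided exact permutation test, p = 0.1, and 0.12 adjusted over the 6 ratios), and that p is the smallest the design allows.

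The promoters of the genes that moved most are shown because the falls of EGR1, FOS and FOSB went together and JUND went the other way. They are the 250 bases before the RefSeq transcription start on GRCh38.p14, written 5′ to 3′ on the strand of the gene: chr5:138465229-138465478 on the plus strand for EGR1, chr14:75278578-75278827 on the plus strand for FOS, chr19:45467746-45467995 on the plus strand for FOSB and chr19:18281623-18281872 on the minus strand for JUND. Capitals mark matches on either strand to the CArG box bound by serum response factor, to the cAMP response element TGACGTCA, to its shorter form TGACGT, which is also counted inside TGACGTCA, and to the TATA element TATAAA.
EGR1: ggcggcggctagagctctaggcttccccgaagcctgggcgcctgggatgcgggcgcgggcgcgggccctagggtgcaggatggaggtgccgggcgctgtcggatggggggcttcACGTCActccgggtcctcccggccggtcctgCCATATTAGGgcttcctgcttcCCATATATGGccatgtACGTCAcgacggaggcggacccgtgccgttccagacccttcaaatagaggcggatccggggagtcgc
FOS: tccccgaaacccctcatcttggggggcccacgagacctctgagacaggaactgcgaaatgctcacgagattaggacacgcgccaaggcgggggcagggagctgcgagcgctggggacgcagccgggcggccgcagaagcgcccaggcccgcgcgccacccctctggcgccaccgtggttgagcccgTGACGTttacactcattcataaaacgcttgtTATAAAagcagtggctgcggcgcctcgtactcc
FOSB: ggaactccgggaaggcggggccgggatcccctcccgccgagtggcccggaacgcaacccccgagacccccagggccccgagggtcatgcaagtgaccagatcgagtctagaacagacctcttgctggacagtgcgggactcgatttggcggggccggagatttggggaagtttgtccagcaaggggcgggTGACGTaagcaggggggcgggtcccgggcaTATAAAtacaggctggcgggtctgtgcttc
JUND: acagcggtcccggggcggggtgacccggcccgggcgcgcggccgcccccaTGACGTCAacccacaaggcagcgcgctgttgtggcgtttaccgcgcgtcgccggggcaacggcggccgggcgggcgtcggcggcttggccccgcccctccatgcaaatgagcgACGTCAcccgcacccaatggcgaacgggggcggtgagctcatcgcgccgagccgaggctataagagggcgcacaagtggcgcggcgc

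The upstream window of EGR1 held 2 CArG boxes, 105 to 96 and 83 to 74 bases before the start, and 2 matches to TGACGT. A CArG box occurred in 1.16% of the 35116 RefSeq windows of the same length. EGR1 was the only gene with a match inside its window among the 8 of the 10 genes for which a window was at hand. Bases further upstream were not searched, so the absence of a match here does not mean that a gene has no CArG box. FOS and FOSB were alike in layout: each held TGACGT, 64 to 59 bases before the start in FOS and 60 to 55 in FOSB, and TATAAA, 33 to 28 and 30 to 25 bases before it. TGACGT was found in 7.10% of all windows and TATAAA in 10.7%. JUND held the full TGACGTCA 200 to 193 bases before the start, which 1.65% of windows hold, and a further TGACGT at 87 to 82 bases. Of the other genes, JUN held TGACATCA, an AP-1 element of its own promoter, 67 to 60 bases before the start (2.37% of windows), JUNB held TATAAA, FOSL2 held TGACGT, and MAFF held TGACGTCA and 2 matches to the E-box CACGTG (6.34% of windows). The AP-1 element TGACTCA, present in 4.20% of windows, had 0 matches in the windows of these 8 genes. Searches covered both strands, and a match of letters is not evidence of binding. A link between these matches and the direction of change was not tested.

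Genes around AP-1 were described through lists, beside the 31.7% of all genes tested that were called higher and the 30.6% called lower. Among 18 other leucine zipper factors that can pair with AP-1 or MAF proteins, 13 were tested, with 7 higher (53.8%) and 3 lower (23.1%). Their median log2 fold change was 0.17, and with TPM it was 0.36, beside 0.23 over all genes in that fit. DDIT3, a stress-induced factor of the C/EBP family, rose from 23.8 ± 2.17 to 81.8 ± 3.30 CPM, a log2 fold change of 1.78. ATF3, an immediate early and stress-induced partner of JUN proteins, rose from 8.86 ± 0.88 to 17.7 ± 1.21 CPM, a log2 fold change of 1.00. BATF2 and the small MAF gene MAFK fell, with log2 fold changes of -0.59 and -0.56 (mean ± SD of 3 samples, edgeR adjusted p = 0.0042 or lower for all 4 genes). ATF3 thus moved opposite to FOS, FOSB and EGR1.

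Of 24 other immediate early genes, 18 were tested, and 5 were higher (27.8%, against 31.7% of all genes) and 10 lower (55.6%, against 30.6%), with a median log2 fold change of -0.15. CCN1, a secreted matrix protein gene, fell from 670.3 ± 24.7 to 291.9 ± 7.86 CPM, a log2 fold change of -1.20 (edgeR adjusted p = 4.6e-09). EGR2, a paralog of EGR1, fell from 2.53 ± 0.57 to 1.47 ± 0.29 CPM, a log2 fold change of -0.78 (edgeR adjusted p = 0.014, and 0.059 without rhSema3C replicate 2). The call of EGR2 held in 8 of the 12 alternatives in which it was tested. It was missed in each limma fit (adjusted p = 0.057 to 0.11 from limma). KLF4, a zinc finger factor of growth arrest, rose from 12.1 ± 0.96 to 28.1 ± 0.32 CPM, and BTG2, an antiproliferative gene, from 5.22 ± 0.54 to 7.31 ± 1.02 CPM (mean ± SD of 3 samples). Their log2 fold changes were 1.22 and 0.49, and without rhSema3C replicate 1 the adjusted p of BTG2 was 0.066. With TPM the counts of this list became 8 higher and 5 lower and its median 0.08. The TPM fit called 6934 of 14178 genes higher and 2428 lower, with a median of 0.23, beside 0.02 in the main fit. The sign of the list median thus depends on the scaling, but it lay below the median of all genes in both fits.

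Upstream kinases and factors were nearly balanced, with 6 higher and 7 lower of 20 tested from a list of 21, which is 30.0% and 35% against 31.7% and 30.6% of all genes, and a median log2 fold change of -0.02. SRF, the serum response factor that binds the CArG box, fell from 108.5 ± 8.55 to 67.0 ± 2.41 CPM, a log2 fold change of -0.69 (edgeR adjusted p = 1.7e-06). Its cofactors went either way. ELK4 rose from 18.7 ± 1.22 to 34.1 ± 1.17 CPM, a log2 fold change of 0.87 (mean ± SD of 3 samples), and MRTFB rose by 0.26. ELK1, ELK3 and MRTFA fell, with log2 fold changes of -0.38, -0.39 and -0.21 (edgeR adjusted p = 0.016 or lower for each cofactor). FBXW7, a ubiquitin ligase adaptor that targets MYC and JUN proteins, rose by 0.48 on the log2 scale, and TRIB1 fell by 0.48. With library size alone 10 genes of this list were higher, and with TPM 11, and the median was 0.09 and 0.21. All genes tested had medians of 0.13 and 0.23 in these fits, and rises made up 62.3% and 74.1% of all calls. The list median thus lay slightly below that of all genes with either scaling.

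In the list of the MYC network, the partners and antagonists of MYC, 4 were higher and 8 lower of 14 tested from a list of 15, which is 28.6% and 57.1% against 31.7% and 30.6% of all genes. The median log2 fold change was -0.18, and with TPM it was 0.04, with 5 higher and 5 lower. All genes tested had a median of 0.23 with TPM, with 6934 of 14178 higher and 2428 lower. The antagonists of the MXD family split. MXI1 and MXD1 rose, from 14.8 ± 0.77 to 32.1 ± 0.49 CPM and from 9.21 ± 1.41 to 19.3 ± 1.18 CPM, with log2 fold changes of 1.11 and 1.07. MXD3 and MXD4 fell, with log2 fold changes of -0.69 and -0.52. The chromatin helicase gene RUVBL2 fell by 0.66 on the log2 scale (mean ± SD of 3 samples, edgeR adjusted p = 0.00013 or lower for each of these genes). MYC itself did not pass the test at the same filter.

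AP-1 target genes leaned lower, with 14 lower (73.7%) and 4 higher (21.1%) of 19 tested from a list of 23, against 30.6% and 31.7% over all genes, and a median log2 fold change of -0.37. MMP3, a matrix metalloproteinase gene, fell from 73.5 ± 1.22 to 22.6 ± 2.07 CPM, and CCND1, which encodes cyclin D1, fell from 1271 ± 24.3 to 423.1 ± 11.4 CPM (mean ± SD of 3 samples). Their log2 fold changes were -1.70 and -1.59. The cytokine genes CXCL8 and IL6, which are also NF-κB targets, had the largest rises of this list, 1.94 and 1.73 on the log2 scale (edgeR adjusted p = 9.9e-09 or lower for all 4 genes). The median remained below 0 in all 15 alternative settings, from -0.40 to -0.14.

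MYC target genes were called in 18 of 20 cases, 12 lower (60.0%, against 30.6% of all genes) and 6 higher (30.0%, against 31.7%). The median log2 fold change was -0.20, and with TPM it was 0.03, with 9 lower and 8 higher. Over all genes the TPM fit gave a median of 0.23, with 2428 of 14178 lower and 6934 higher. BOP1 and RRS1, which act in ribosome assembly, fell, from 73.3 ± 1.63 to 37.0 ± 2.11 CPM and from 39.3 ± 2.13 to 20.2 ± 1.60 CPM, with log2 fold changes of -0.99 and -0.96. RIOX2 and CCND2, which encodes cyclin D2, rose by 0.52 and 0.46 on the log2 scale (mean ± SD of 3 samples, edgeR adjusted p = 0.0020 or lower for all 4 genes). Other ribosome assembly genes of the list went either way, among them NOP16 at -0.76 and NPM1 at 0.36 (edgeR adjusted p = 0.00019 or lower for both).

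**Figure D3:**
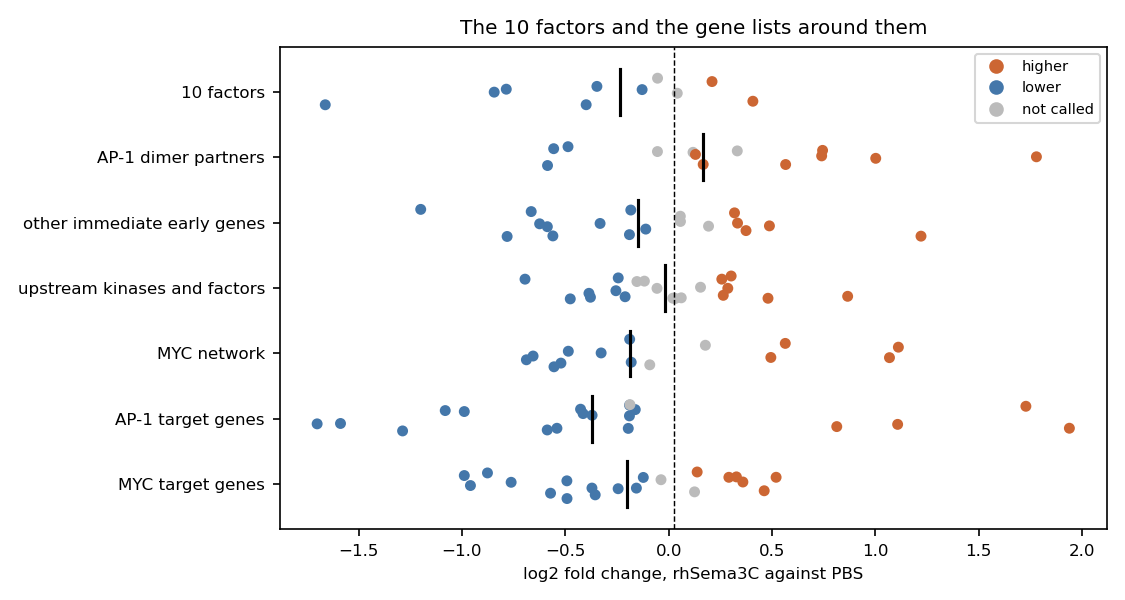
Log2 fold change of rhSema3C against PBS (horizontal axis) for every tested gene of the 10 factors and the 6 lists, orange for genes called higher, blue for genes called lower and grey for genes not called at an adjusted p of 0.05. Black bars mark list medians, from -0.37 for AP-1 target genes to 0.17 for AP-1 dimer partners, and the dashed line marks the median of all genes tested, 0.02.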

How the data were processed

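For each of 3 rhSema3C and 3 PBS samples of LX-2 cells, the table deposited by the authors holds a raw whole-number count and an FPKM value per gene. Of its processing, the sources used here name Cufflinks and cuffmerge, and the aligner, counting tool, strand setting and genome build are not given in the sources used here. The coordinates lie on GRCh38. Titles of the samples gave group and replicate. Counts were tested with edgeR (quasi-likelihood, TMM factors, no covariates) over 14178 genes, those whose mean FPKM reached 0.5, and called at a Benjamini-Hochberg adjusted p below 0.05. CPM used TMM-scaled totals. Library totals ranged from 68267808 to 89245585, and the common biological coefficient of variation was 0.117. Replicates of a group differed by more than counting noise (chi-square per degree of freedom 15.9 to 27.6).

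The 10 genes and the 6 lists were chosen with earlier results of these data known, and the promoter windows and motifs after the gene values were known. All 10 genes are named, and from each list the 2 largest rises and 2 largest falls among called genes. Further genes of some lists are named beside these. EGR4, MYCN and LOR were not analysed here. Promoter sequences are from RefSeq (GRCh38.p14). Alternatives changed the scaling, the filter on low genes or the test, added a replicate block, or left out a sample. Scripts were tested on simulated counts. The software was R 4.3.3 with edgeR 4.0.16, DESeq2 1.42.0 and limma 3.58.1, and scipy 1.17.1.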

Additional observations from a re-analysis of the deposited data

How the results depend on the processing

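The directions and calls of FOSB, FOS, EGR1, FOSL2, JUN, FOSL1 and JUND held in every alternative in which the gene was tested, and FOS and FOSB were not tested at a mean FPKM of at least 5. JUNB changed sign with TPM (0.10) and missed the threshold in 10 of 15 alternatives, TPM included. MAFF changed sign with library size alone (0.055), TPM (0.17), a mean FPKM of at least 5 (0.052) and limma with a pseudocount of 1 (0.044) or 0.1 (0.047). MYC changed sign without PBS replicate 1 (-0.0028) and without rhSema3C replicate 1 (-0.013), with a range of -0.013 to 0.095 over the samples left out. MYC passed the threshold as higher with TPM (0.26) and at a mean FPKM of at least 5 (0.15). The log2 ratio of EGR1 to FOS changed by -0.0064 to 0.13 over the samples left out, against 0.06.

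With TPM, 6934 of all genes were higher and 2428 lower, and 92 were lower by more than 2-fold. With TPM also, 4 of the 10 factors were higher, the other immediate early genes had 8 higher and 5 lower, the upstream genes 11 and 3, and the MYC network 5 lower. With library size alone 10 upstream genes were higher, in a fit where the median of all genes was 0.13. At a mean FPKM of at least 5, where 6971 genes were tested, 2630 were higher and 2602 lower (166 and 70 by more than 2-fold). There 3 factors, 1 dimer partner, 6 immediate early genes and 5 MYC network genes were lower. Fewer genes of each of these lists passed that filter than the filter of 0.5, so the counts cover fewer genes. Of the MYC network 0 were then higher in edgeR's quasi-likelihood test, with 0 of 8 tested at an unadjusted p below 0.05 in that direction. The 4 genes of this network called higher at the filter of 0.5, among them MXI1 and MXD1, lay below a mean FPKM of 5 and were not tested there. MXI1 and MXD1 kept their calls in all 14 alternatives in which they were tested. Without a filter 786 genes were higher by more than 2-fold. Limma gave 172 higher and 74 lower by more than 2-fold with a pseudocount of 1 and 179 lower with 0.1, and 6 immediate early genes lower with either. The cause of the other differences was not tested.

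No sign of pairing by replicate number was seen: the correlation of deviations between same-numbered samples was -0.09, -0.08 and -0.04. With 3 samples per group, such values cannot decide whether same-numbered samples were handled together, and the labels do not say. With the replicate block all genes called higher numbered 4221 and all genes called lower numbered 4120, and 2 of the 10 factors were higher and 5 lower, the call lost being JUNB (adjusted p = 0.087 from edgeR).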

Other observations

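Several immediate early genes lay below the level at which genes were tested and are given as counts only. NR4A2, a nuclear receptor gene, had 101, 50 and 39 counts with PBS and 138, 152 and 119 with rhSema3C. ARC had 62, 57 and 63 counts with PBS and 47, 48 and 20 with rhSema3C. NPAS4 had 41, 63 and 112 counts with PBS and 4, 29 and 42 with rhSema3C. EGR3 had 94, 102 and 95 counts with PBS and 78, 90 and 85 with rhSema3C. The epidermal growth factor family gene EREG, from the list of AP-1 target genes, had 109, 69 and 68 counts with PBS and 194, 140 and 152 with rhSema3C.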
